A study of Saccharomyces cerevisiae with 6 samples.

Results

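Transcripts of the proteasome subunits of Saccharomyces cerevisiae, and of RPN4, the transcription factor that drives them, were compared between a strain lacking GCR2 and the wild-type strain FY4. Members were all genes whose symbol in the platform annotation is RPN, RPT, PRE or PUP with a number, or SCL1. The rule gave 34 genes of the 5449 tested, and each was read by 1 probe set. They were 14 subunits of the core particle, 18 of the regulatory particle, the regulator RPN4, and RPN14, which helps to assemble the regulatory particle and is no subunit of it.

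The series held 6 Affymetrix arrays, 3 with RNA of wild-type FY4, a prototrophic laboratory strain, and 3 with RNA of the GCR2 deletion. GCR2 codes for an activator of glycolytic genes, and the labels give no strain name for the deletion samples. Both groups grew in batch culture at 30 °C on minimal medium with glucose and were harvested in exponential phase. No label says that replicates were separate cultures, so the p-values below cover the spread between these samples only, which may be technical.

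The proteasome breaks down proteins that carry ubiquitin chains. Its core particle is a barrel of stacked rings, in which beta subunits cut proteins and alpha subunits form the gate. The regulatory particle has a base, whose ATPases unfold the substrate and push it into the barrel, and a lid, which removes the ubiquitin. Rpn4 activates most subunit genes in yeast and is itself a short-lived substrate of the proteasome, so that the complex limits its own supply.

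Values are log2 of the deposited intensities, and differences are the deletion minus wild-type on that log2 scale, with limma's standard error (SE). A gene was called, and is said to have risen or fallen, at a Benjamini-Hochberg adjusted p under 0.05 over all 5449 genes. Levels are given as mean ± SD over 3 arrays and are compared only within a gene, since probe sets differ in brightness. All 34 members lay above background on all 6 arrays. GCR2 averaged 11.11 ± 0.05 on the wild-type arrays; every deletion array read it under background, at least 27.5-fold lower (limma adjusted p = 1.01e-06).

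Proteasome genes were slightly higher in the deletion. Of the 34 members, 11 rose, 0 fell and 23 did not pass limma's test, while 14.1% of all tested genes rose and 8.35% fell. At an unadjusted p under 0.05, 17 members were higher and 0 lower, beside 23.1% and 15.3% of all genes. The median difference over the members was 0.12, a 1.09-fold change, against 0.02 over all tested genes. In these bulk samples a change in the mix of cells and a change in the RNA per cell cannot be told apart. The largest difference was 0.31, for RPN10, and the highest upper 95% limit of any member was 0.50, or 1.42-fold, so a 2-fold change lay outside every member's interval. In 21 members all 3 deletion arrays lay above all 3 wild-type arrays, and in 0 below them; over all genes these shares were 27.1% and 18.1%.

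The number of members that rose depended on single arrays. It was 5, 12 and 9 without wild-type replicates 1, 2 and 3, and 3, 3 and 1 without deletion replicates 1, 2 and 3. In the same order, the share of all genes that rose was 8.22%, 13.8% and 11.9%, then 5.51%, 6.44% and 4.39%. With wild-type replicate 3 and deletion replicate 1 both left out, 1 member rose (RPN14) and 3.65% of all genes. There, and without deletion replicate 3, 1 of 34 members was a smaller share than that of all genes. In none of these fits did a member fall.

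**Figure D1:**
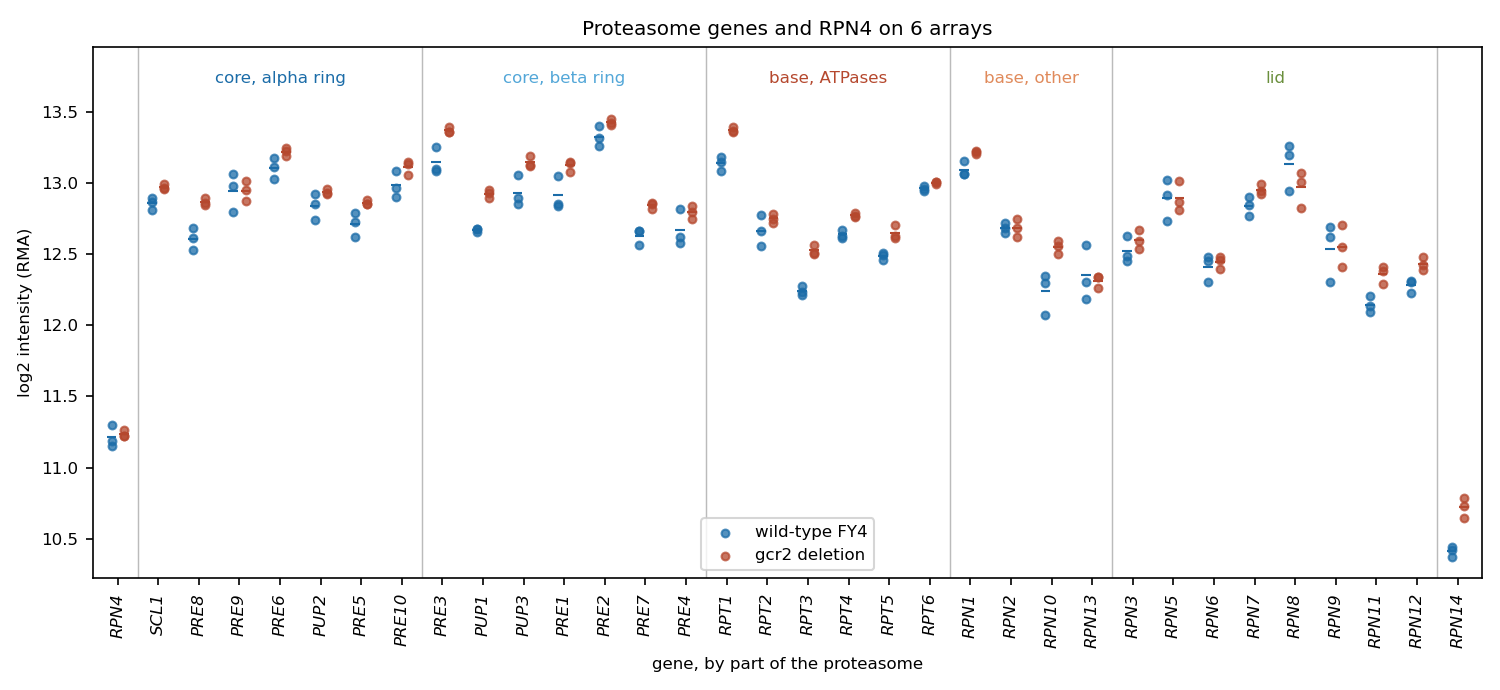
Log2 intensity (vertical axis) of the 34 members on each array, in order of their place in the proteasome, with wild-type in blue and the deletion in red; points are arrays and short lines the means of 3. The red points lie above the blue ones in 21 genes, by amounts that are small beside the axis, and overlap them in RPN4 and in most lid genes. Heights of different genes are not comparable.

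RPN4 itself did not pass the test. It read 11.15, 11.19 and 11.30 on the wild-type arrays and 11.22, 11.22 and 11.26 on the deletion arrays. All 3 deletion values fell inside the wild-type range. The difference was 0.02 (SE 0.05, 95% interval -0.10 to 0.15, limma adjusted p = 0.75), and it was -0.01 without wild-type replicate 1. The arrays measure RPN4 messenger RNA, and the amount of the short-lived protein was not measured.

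The catalytic beta ring of the core held 3 risen genes of 7 (42.9%, beside 14.1% of all genes). PUP1, whose product carries the trypsin-like site, read 12.68, 12.67 and 12.65 in wild-type and 12.93, 12.89 and 12.95 in the deletion. Its groups were far apart for their spread, and it rose 1.19-fold (difference 0.26, SE 0.04, limma adjusted p = 0.0083). PRE3, which codes for the caspase-like subunit, read 13.08, 13.25 and 13.10 against 13.36, 13.36 and 13.39. It rose by 0.23 (SE 0.05, limma adjusted p = 0.033), with wild-type replicate 2 closest to the deletion arrays. PRE7, a beta subunit with no active site, rose from 12.63 ± 0.06 to 12.84 ± 0.02 (difference 0.21, limma adjusted p = 0.022).

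The remaining beta genes did not pass. PRE2, for the chymotrypsin-like subunit, was at 13.32 ± 0.07 and 13.43 ± 0.02, a difference of 0.10 (limma adjusted p = 0.18). PUP3 and PRE1 differed by 0.21 each, as much as PRE7, but had wider wild-type spreads of 0.11 and 0.12 (adjusted p = 0.059 and 0.069). PRE4 differed by 0.12 with overlapping groups. Of the 3 genes for catalytic subunits, PUP1 and PRE3 therefore passed and PRE2 did not, and the 95% intervals of PUP1 (0.17 to 0.35) and PRE2 (-0.02 to 0.22) overlap. The difference between those genes was not tested.

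In the alpha ring 1 of 7 genes rose (14.3%, near the 14.1% of all genes). PRE8 read 12.61, 12.69 and 12.53 in wild-type and 12.85, 12.89 and 12.86 in the deletion, with no overlap (difference 0.26, SE 0.05, limma adjusted p = 0.020). PRE5, SCL1 and PRE6 also had every deletion array above every wild-type array, by 0.15, 0.12 and 0.11 in the mean, and did not pass. PRE10 and PUP2 differed by 0.13 and 0.10 with overlapping groups. PRE9, which codes for the alpha subunit that yeast can live without, was at 12.94 ± 0.14 and 12.94 ± 0.07, a difference of 0.001 (95% interval -0.20 to 0.20). Its sign turned in 5 of the 17 alternative settings.

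**Figure D2:**
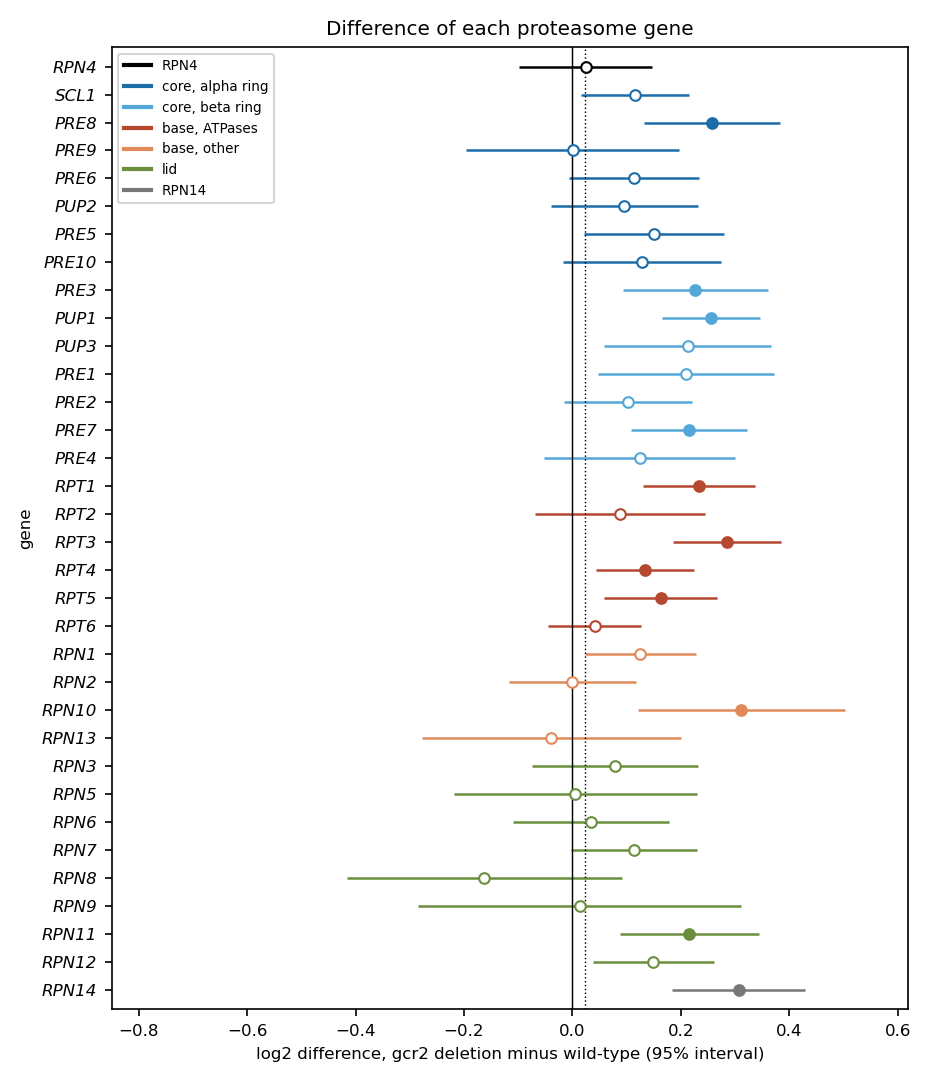
Log2 difference of each member, deletion minus wild-type (horizontal axis), with limma's 95% interval; filled points passed the test at an adjusted p under 0.05, and open points did not. The solid line marks 0 and the dotted line the median of all tested genes, 0.02. The 11 filled points lie between 0.13 and 0.31, and the lid genes RPN5, RPN8 and RPN9 have wide intervals around or below 0.

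The ATPases of the base, which form the ring that unfolds substrates, had 4 risen genes of 6 (66.7%, beside 14.1% of all genes). RPT3 had the smallest p of all members. It read 12.24, 12.27 and 12.21 in wild-type and 12.51, 12.57 and 12.50 in the deletion, and rose 1.22-fold (difference 0.29, SE 0.04, limma adjusted p = 0.0079). Each deletion array was thus above the highest wild-type array. RPT1 read 13.08, 13.15 and 13.18 against 13.36, 13.39 and 13.36, again with no overlap (difference 0.23, SE 0.04, limma adjusted p = 0.015).

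RPT5 and RPT4 rose by 0.16 and 0.13, close to the threshold (limma adjusted p = 0.042 and 0.049). RPT4 lost its call in 10 and RPT5 in 11 of 17 alternative settings, while RPT3 lost its call in 1. RPT2 and RPT6 did not pass. RPT6 was at 12.96 ± 0.02 and 13.00 ± 0.01, a difference of 0.04 (95% interval -0.04 to 0.13), and RPT2 differed by 0.09 with groups that overlapped.

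Among the other 4 base subunits, RPN10, for a receptor of ubiquitin chains, rose. It read 12.30, 12.34 and 12.07 in wild-type and 12.59, 12.50 and 12.56 in the deletion. The groups did not overlap, and wild-type replicate 3 was the lowest array (difference 0.31, SE 0.08, limma adjusted p = 0.037). Without that replicate the difference was 0.23 and the call was kept (limma adjusted p = 0.031). Over the 17 alternatives the call was lost in 8.

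RPN13, another ubiquitin receptor, was at 12.35 ± 0.19 and 12.31 ± 0.04 and did not pass, with wild-type replicate 2 the highest array by a wide margin. RPN1 and RPN2 code for the large scaffold proteins of the base. RPN1, which docks shuttle factors, differed by 0.12, its groups not overlapping (limma adjusted p = 0.080). RPN2 was at 12.68 ± 0.03 and 12.68 ± 0.06, and the 95% interval of its difference ran from -0.12 to 0.12.

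The lid held 1 risen gene of 8 (12.5%, near the 14.1% of all genes). RPN11, for the metalloprotease that strips ubiquitin from substrates, read 12.09, 12.20 and 12.14 in wild-type and 12.29, 12.41 and 12.38 in the deletion. Its groups did not overlap (difference 0.22, SE 0.05, limma adjusted p = 0.034). RPN8, whose product pairs with Rpn11, had the lowest difference of all members. It read 12.94, 13.20 and 13.26 against 12.83, 13.07 and 13.01, a difference of -0.16 with overlapping groups (95% interval -0.42 to 0.09, limma adjusted p = 0.30).

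RPN12 and RPN7 differed by 0.15 and 0.11 with no overlap between groups and did not pass (adjusted p = 0.063 and 0.13). The differences of RPN3, RPN6, RPN9 and RPN5 were 0.08, 0.03, 0.01 and 0.01. RPN9, RPN8 and RPN5 had the largest SDs of the members within the deletion, at 0.15, 0.13 and 0.11, and SDs of 0.20, 0.17 and 0.15 within wild-type. In each of these 3 genes replicate 1 was the lowest array of its own group, in wild-type and in the deletion alike.

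RPN14, the assembly chaperone of the base, read 10.38, 10.45 and 10.42 in wild-type and 10.64, 10.79 and 10.73 in the deletion. It rose 1.24-fold (difference 0.31, SE 0.05, limma adjusted p = 0.012) and lost its call in 2 of 17 alternatives. Its groups were farther apart than the range within either of them.

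The core and the regulatory particle were compared by their counts and medians. Of 14 core genes 4 rose (28.6%), with a median difference of 0.14, and all 14 differences were above 0. Of 18 regulatory genes 6 rose (33.3%), with a median of 0.10, and 15 differences were above 0. Of all 5449 genes 14.1% rose, with a median of 0.02, and 3022 differences were above 0. The medians were 0.21 for the beta ring, 0.15 for the ATPases, 0.12 for the alpha ring and 0.06 each for the other base subunits and the lid. No test was made of these medians, because the genes of a particle are not replicates. Parts of 4 to 8 genes are also too short to read a risen share from.

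For a view by array, each gene was set to its own mean over the 6 arrays, and these deviations were averaged over the genes of a particle. The core then stood at -0.11, 0.01 and -0.13 on wild-type replicates 1, 2 and 3, and at 0.06, 0.09 and 0.08 on the deletion replicates. The regulatory particle stood at -0.11, -0.01 and -0.02 and at 0.01, 0.09 and 0.05. In both particles all deletion arrays were above all wild-type arrays, but wild-type replicate 2 came close to the lowest deletion array in the regulatory particle. The lid alone overlapped, with -0.14, 0.01 and 0.05 in wild-type and -0.05, 0.11 and 0.03 in the deletion.

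Subtracting the regulatory mean from the core mean gave 0.00, 0.02 and -0.11 on the wild-type arrays. The deletion arrays gave 0.05, 0.00 and 0.04, which overlaps the wild-type range. Only wild-type replicate 3 stood apart from the other 5 arrays. The core median minus the regulatory median was 0.04 with all arrays and -0.02 without wild-type replicate 3. Without wild-type replicate 2 the medians were 0.19 and 0.10. No order of the particles can be read from these values.

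**Figure D3:**
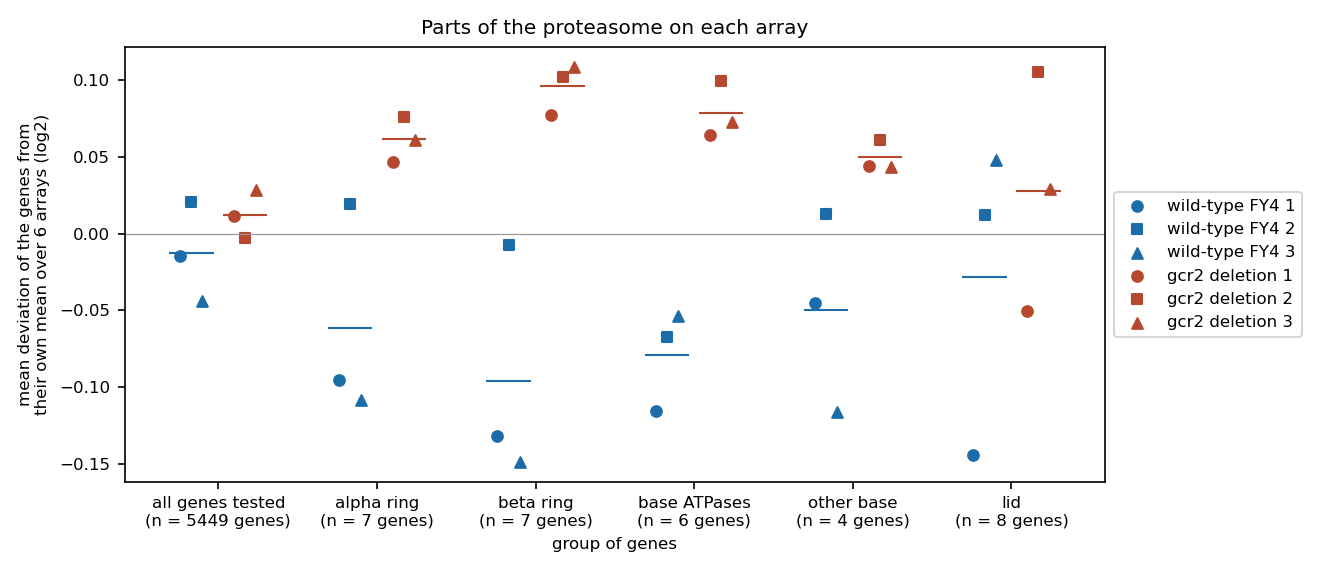
Mean deviation of the genes in each part of the proteasome from their own means over 6 arrays, in log2 units (vertical axis), with 1 point per array and lines for the means of 3. The beta ring and the ATPases show the widest gaps between the groups, the lid overlaps, and all genes tested stay within -0.04 and 0.03.

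Wild-type replicate 1 held the lowest value of 19 members (55.9%, against 17.3% of all genes). Wild-type replicate 3 held the lowest of 12 (35.3%, near the 29.3% of all genes). Deletion replicate 2 held the highest value of 19 members (55.9%, against 13.7%). The core genes were lowest on wild-type replicate 3 in 8 of 14 and the regulatory genes on wild-type replicate 1 in 11 of 18. In 27 of 34 members the SD was larger in wild-type than in the deletion, and the same held for 72.3% of all genes.

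Genes that assemble or activate the proteasome were measured beside it, from a list of 14 that includes the lid gene SEM1, which the naming rule misses. Of these 3 rose, 0 fell and 11 did not pass limma's test (4 higher and 0 lower at an unadjusted p under 0.05), with a median of 0.17. The risen share was 21.4%, beside 14.1% of all genes, and the share higher at an unadjusted p was 28.6%, near the 23.1% of all genes. NAS2, another chaperone of the base, rose by 0.32 (limma adjusted p = 0.020), and ECM29, whose product holds core and regulatory particle together, by 0.30 (adjusted p = 0.047). PBA1, which helps to build the alpha ring, rose from 11.15 ± 0.02 to 11.35 ± 0.06 (adjusted p = 0.027). Each of these calls was lost in 7 or 8 of 17 alternatives.

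UMP1, the chaperone of core assembly, had the largest difference on the list. It read 11.22, 11.33 and 10.71 in wild-type and 11.62, 11.56 and 11.65 in the deletion. Wild-type replicate 3 lay far below the others, and the difference of 0.52 did not pass (SE 0.16, limma adjusted p = 0.062). Without that replicate UMP1 was higher by 0.34 and passed (adjusted p = 0.020); over the fits that leave out 1 array the adjusted p ran from 0.020 to 0.17. IRC25, POC4, TMA17, SEM1, ADD66, NAS2, NAS6, BLM10 and FUB1 were lowest on the same array, and PBA1, HSM3, ECM29 and SPG5 on others. That array held the lowest value of 29.3% of all genes. SEM1 read 11.96, 12.29 and 11.41 against 11.89, 11.80 and 12.04, a difference of 0.02 that turned to -0.22 without wild-type replicate 3.

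Of 21 genes that supply ubiquitin or carry substrates to the proteasome, 5 rose, 0 fell and 16 did not pass limma's test (11 higher and 0 lower at an unadjusted p under 0.05), with a median of 0.13. The shares were 23.8% risen and 52.4% higher at an unadjusted p, beside 14.1% and 23.1% of all genes. UBC4, a main ubiquitin-conjugating enzyme, rose from 13.53 ± 0.07 to 13.83 ± 0.03 (limma adjusted p = 0.011). DSK2, for a shuttle that ferries ubiquitylated proteins, rose from 12.58 ± 0.06 to 12.87 ± 0.03 (adjusted p = 0.011). Of the Cdc48 machinery, which extracts proteins before breakdown, UFD1 rose by 0.30, DOA1 by 0.23 and CDC48 by 0.15 (adjusted p = 0.019, 0.028 and 0.049). CDC48 lost its call in 11 of 17 alternatives.

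UBI4, the stress-induced polyubiquitin gene, was higher by 0.26 with no overlap between groups and did not pass (limma adjusted p = 0.063). RPL40A, RPL40B and RPS31, which encode ubiquitin fused to ribosomal proteins, differed by -0.0002, 0.04 and -0.02. Their 95% intervals all lay between -0.13 and 0.13.

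Of 7 regulators of RPN4, 3 rose, 0 fell and 4 did not pass limma's test (4 higher and 0 lower at an unadjusted p under 0.05), with a median of 0.17. All genes gave 14.1% risen and 23.1% higher at an unadjusted p, and a list of 7 is too short to read a share from. PDR1 and HSF1, whose products bind the RPN4 promoter, rose by 0.23 (limma adjusted p = 0.012) and 0.26 (adjusted p = 0.036). PDR1 read 11.32, 11.29 and 11.30 in wild-type and 11.58, 11.51 and 11.53 in the deletion, a clear gap. PDR3 differed by 0.17 (adjusted p = 0.057) and YAP1 by 0.03. RAD6 and UBR2 act together in marking Rpn4 for breakdown. RAD6 rose by 0.17 (adjusted p = 0.039), and UBR2 was at 10.01 ± 0.02 and 9.97 ± 0.07. Among the alternatives HSF1 missed the threshold in 10, RAD6 in 9 and PDR1 in 4.

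**Figure D4:**
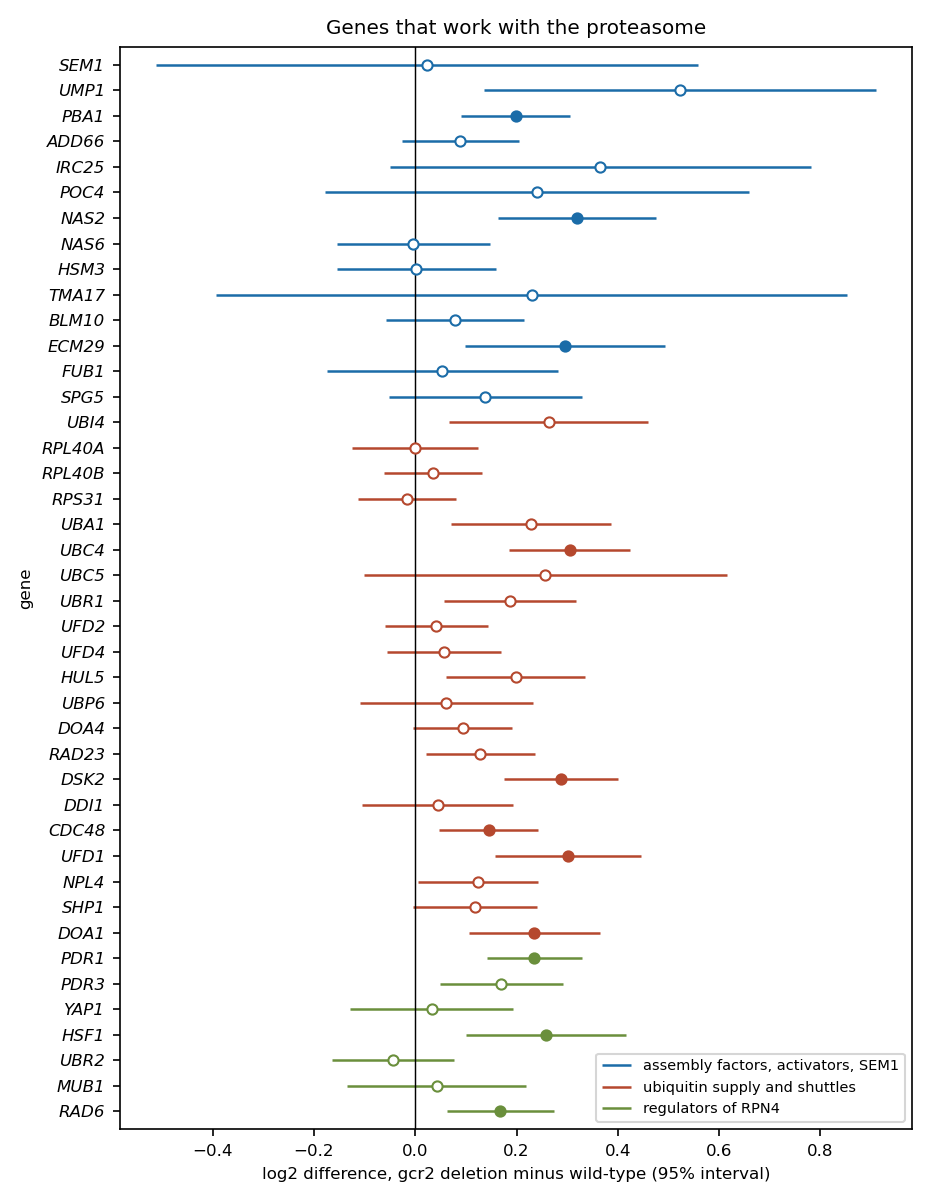
Log2 difference, deletion minus wild-type (horizontal axis), of the genes that assemble, supply or regulate the proteasome, with limma's 95% interval; filled points passed the test at an adjusted p under 0.05. The 11 filled points lie between 0.15 and 0.32, and UMP1 is the open point farthest to the right, at 0.52.

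Genes next to the members on the chromosome were looked up in assembly R64. No member adjoined another member. Of 62 measured adjacent genes outside the list 8 rose and 4 fell, shares near the 14.1% and 8.35% of all genes. Their median difference was -0.01. GPM2, a phosphoglycerate mutase paralog that adjoins RPN4, read 10.26, 10.51 and 10.24 in wild-type and 11.34, 11.47 and 11.32 in the deletion. It rose 2.06-fold (difference 1.04, SE 0.09, limma adjusted p = 0.0014), beside the overlapping values of RPN4. ENO1, the enolase gene that adjoins PUP2, fell by 0.74 (limma adjusted p = 0.00088). The largest fall among the adjacent genes was that of FUI1, beside PRE7, at -1.05 (limma adjusted p = 0.0075).

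Spike-in controls and mating-type markers were read beside the proteasome genes. Poly-A controls, bacterial transcripts added before labelling, averaged 8.22 ± 0.40 on wild-type and 7.35 ± 0.24 on deletion arrays. When arrays were centred on them, the median difference of all genes was 0.90. Then 90.7% of all genes and all 34 members were called higher. The medians were 1.01 for the core and 0.98 for the regulatory particle. All differences above are therefore relative to the bulk of each array. Centring shifts every gene of an array by the same amount. The calls made after it thus repeat the 1 difference between the controls and are not independent between genes. Of 5 genes marking mating type a 1 rose (BAR1, by 0.22), and of 4 marking mating type alpha 1 rose (STE3, from 7.53 ± 0.06 to 8.44 ± 0.07), with 0 falls in either list by limma. At an unadjusted p under 0.05, 1 a marker and 2 alpha markers were higher and 0 lower. The pheromone genes MF(ALPHA)1 and MF(ALPHA)2 differed by -0.32 and -0.20 and did not pass, and the alpha list's median was 0.01. The summed intensity of the a markers ranged from 48570 to 56970 in wild-type and from 50040 to 58010 in the deletion, ranges that overlap. The alpha markers summed to between 1571 and 1847 and to between 1960 and 2025, which do not. A sum of intensities leans on the brightest probe set, which among the 4 alpha markers was SAG1. SAG1 averaged 10.12 ± 0.12 on wild-type and 10.34 ± 0.03 on deletion arrays. Its difference of 0.23 did not pass (limma adjusted p = 0.053). The gap between the alpha sums was therefore not read as a shift of the whole list. The part of the controls and of these markers in the proteasome differences was not tested.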

How the data were processed

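The authors deposited 1 table of probe-set intensities on a linear scale (9.14 to 37181 over 10928 probe sets and 6 arrays). Per the submitters' processing notes the affy package of R 2.8.0 made them by RMA, which corrects background and equalises the arrays' distributions, so changes in total messenger RNA are removed. The genome build was not stated in the sources used here. Here log2 was taken with no pseudocount. Probe sets with 1 gene were matched to RefSeq assembly R64 by gene ID, and the brightest per gene was kept (5449 genes; 47 had several, no member did). Background was the 95th percentile of the 1746 probe sets of the other yeast species, set per array. Groups were compared across all genes by limma 3.58.1 in R 4.3.3 (lmFit and eBayes, no covariates, two-sided, Benjamini-Hochberg). The script was tested on simulated data. Named genes were all members, the called genes of 3 partner lists with SEM1, UMP1, UBI4, PDR1, PDR3, YAP1, HSF1 and UBR2, and GCR2; other genes named were chosen after their values were seen. Members and lists were chosen with earlier results of these data known. The 17 alternatives covered arrays left out, scaling, filters, weights, priors and thresholds. No column was left out, and no arrays were identical; 3 arrays per group limit the precision (median half-width of a member's 95% interval 0.13).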

Additional observations from a re-analysis of the deposited data

How the results depend on the processing

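No member fell in any of the 17 alternatives, and none of the 11 that rose changed sign. The number of members called higher ranged from 1 to 12 when single arrays were left out (4.39% to 13.8% of all genes). It was 1 with wild-type replicate 3 and deletion replicate 1 both left out (3.65%). It was 18 with array weights (21.0% of all genes rose), 2 at an adjusted p under 0.01 (4.11%) and 34 with poly-A centring (90.7%). With the replicate number as a block it was 7 (7.95%). Same-numbered arrays did not all deviate together (correlations 0.53, -0.17 and -0.44 between groups over all genes), so the numbers are not read as pairs. In the other settings the count was 8 to 12 (10.8% to 15% of all genes). The causes were not tested, except that a stricter threshold lowers a count by construction. Over all alternatives the 11 risen members kept their call 119 times and lost it 68 times. Some settings could scarcely remove a call, so the kept count is generous. Averaging probe sets and removing dim genes left the members' own values unchanged, and poly-A centring called all 34.

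The following ranges cover the fits without single arrays or without both of those arrays. The core median ranged from 0.119 to 0.194, the regulatory median from 0.0626 to 0.160, and core minus regulatory from -0.0239 to 0.0964. Quantile normalization gave 0.101 for the core, under that range, and 0.0674 for the regulatory particle. Poly-A centring gave 1.01 for the core and 0.98 for the regulatory particle. The RPN4 log2 difference ranged from -0.00538 to 0.0743, and poly-A centring gave 0.90 (SE 0.31). That centring shifts all genes of an array together, and limma gave RPN4 and the other members the same SE. A p-value from that fit treats the shared shift as independent between genes and is not given. Signs also turned for genes near 0, with ranges of -0.0752 to 0.0603 for PRE9, -0.0320 to 0.0317 for RPN2, -0.120 to 0.0675 for RPN13, -0.0742 to 0.116 for RPN5, -0.0194 to 0.0922 for RPN6, -0.102 to 0.161 for RPN9, -0.0348 to 0.0863 for YAP1 and -0.217 to 0.226 for SEM1. With both of those arrays left out RPN2 was at 0.0001 and SEM1 at -0.21. Quantile normalization gave -0.00619 for the RPN6 log2 difference, -0.0257 for the RPN5 log2 difference, -0.0277 for the RPN9 log2 difference and -0.0376 for the PRE9 log2 difference. Centring on genes outside the member list gave -0.00352 for RPN5 and -0.00798 for PRE9. Poly-A centring turned the RPN2 log2 difference to 0.88, the RPN13 log2 difference to 0.84, the RPN8 log2 difference to 0.71, the UBR2 log2 difference to 0.83 and the ENO1 log2 difference to 0.13.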

Other observations

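The array also carries probe sets for the other yeast, Schizosaccharomyces pombe, of which 22 bear the same gene names as members. With S. cerevisiae RNA on the array, 20 of them lay under background on all 6 arrays, as most must, since background was set from the probe sets of that species. The remaining 2, rpt2 and rpt3, which code for ATPases of the base, lay above it on all 6, at means of 7.65 and 6.97. Over the 22 probe sets the difference, deletion minus wild-type, ran from -0.29 to 0.33, with a median of -0.13.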
